A study of Mus musculus with 12 samples.

Results

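The neuregulins and the ErbB receptors are a set of 8 genes: the ligand genes Nrg1, Nrg2, Nrg3 and Nrg4 and the receptor genes Egfr, Erbb2, Erbb3 and Erbb4. They were chosen by name from 18820 gene symbols. Each of the 8 was measured by 1 probe set, a group of array probes summarised as 1 value per array, so no choice between probe sets was needed. All 8 had a single gene symbol in the platform annotation.

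Neuregulins are growth factors with an EGF-like domain that binds Erbb3 or Erbb4 at the cell surface. The bound receptor pairs with another member of the family, often Erbb2, which has no known ligand of its own, and Erbb3 signals mainly through its partners because its kinase domain is nearly inactive. In brain, neuregulin-ErbB signalling is known for its part in myelination, in the wiring of cortical interneurons and in synaptic transmission, and Nrg1, Nrg3 and Erbb4 have been studied as candidate genes in schizophrenia.

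The tissue was the nucleus accumbens, core and shell together, taken from adult C57BL/6N mice at 12 weeks of age after behavioural testing. Of the 12 arrays, 6 came from the offspring of dams injected intravenously on gestation day 17 with poly(I:C) at 5 mg/kg, a double-stranded RNA made synthetically that imitates a virus; these are called exposed mice and poly(I:C) arrays. The other 6 were control arrays, from offspring of dams given saline by the same route on the same day. No group carried a genetic change. The labels call the arrays biological replicates, but their litters and sexes are not stated there, so the p-values treat possible litter mates as independent. Values are on a log2 scale, with array medians from 4.78 to 4.85 and a median level of 5.47 over the 21218 probe sets with 1 gene symbol. The 10 measured markers of medium spiny neurons, the main neuron of the accumbens, averaged 9.06 ± 0.19 in controls and 9.17 ± 0.12 in exposed mice (SD, n = 6 arrays per group), well above that median level. Of these 10 genes 7 were higher in value in exposed mice, beside 50.9% of all probe sets and 59.5% of those above the median level. Of the 7, 3 had an unadjusted p under 0.05: Pdyn (log2 difference 0.32), Chrm4 (0.24) and Arpp21 (0.16). Among all probe sets 7.83% were higher at that level. The other 3 genes, Ppp1r1b (-0.08), Drd2 (-0.04) and Penk (-0.02), were lower in value.

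The comparison asked whether prenatal exposure to poly(I:C) was followed by different levels of these transcripts in the adult accumbens. Of the 8 genes, 0 passed the threshold of an adjusted p under 0.05 in limma, where 13 of all 21218 probe sets passed (0.0613%). At an unadjusted p under 0.05 there were 3 of the 8 (37.5%). Of these, Nrg3 and Erbb4 were higher in value and Erbb3 was lower in value in exposed mice. The same unadjusted level was reached by 14.4% of all probe sets, 7.83% on the higher side and 6.57% on the lower side. The ranges of the groups overlapped for all 8 genes, while 1.13% of all probe sets had groups that did not overlap. Ligands and receptors gave like counts, with 3 of 4 ligands and 3 of 4 receptors higher in value, and 50.9% of all probe sets were higher. The median difference was 0.026 on the log2 scale for the ligands and 0.036 for the receptors, against 0.0016 for all probe sets. Of the 8 genes 6 lay above the median level, and among probe sets above that level the median difference was 0.022 and 59.5% were higher. The members' medians and their counts of genes higher in value lay near that background, which does not cover the count at the unadjusted level.

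**Figure D1:**
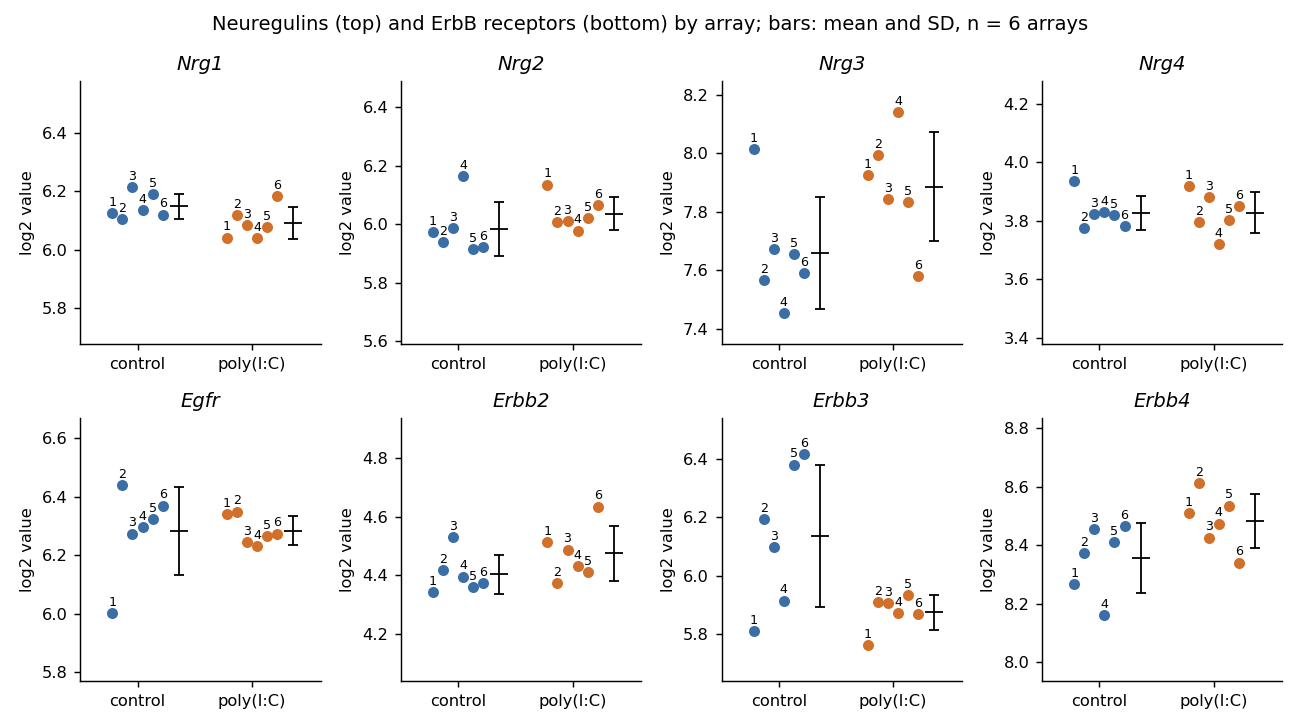
The log2 value of each of the 8 genes on each array, with ligands in the top row and receptors in the bottom row, blue points for the 6 control arrays, orange points for the 6 poly(I:C) arrays and the replicate number over each point. Bars give mean and SD, and each panel spans the same height on the log2 axis. The groups overlap in every panel, with a much wider control spread for Erbb3 and Egfr. The Egfr spread is widened by control 1, the lowest point of that panel.

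Among the ligands, Nrg3 showed the largest log2 difference. Nrg3 encodes a brain-enriched neuregulin that binds Erbb4. Its lowest, median and highest log2 values were 7.45, 7.62 and 8.01 in controls and 7.58, 7.88 and 8.14 in exposed mice. The high control was control 1, at 8.01, which lay above 5 of the poly(I:C) arrays, and the low poly(I:C) array was number 6, at 7.58, which lay among the controls. The means were 7.66 ± 0.19 and 7.89 ± 0.19 (SD, n = 6 arrays per group), which is a log2 difference of 0.23 (95% interval 0.02 to 0.43, limma unadjusted p = 0.0329, adjusted p = 0.305). That difference is a ratio of 1.17, and 5 of 6 poly(I:C) arrays were above the control mean. An exact permutation test over the arrays, two-sided, gave p = 0.0693 for the same difference. The unadjusted level was lost without control 2, 4, 5 or 6 and without poly(I:C) 1, 2 or 4.

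Nrg1, the founding member of the family, is made in many isoforms and, on axons, sets myelin thickness in peripheral nerve. Its values ran from 6.11 to 6.21 with a median of 6.13 in controls, and from 6.04 to 6.18 with a median of 6.08 in exposed mice. In exposed mice 4 of 6 arrays lay below every control array, and poly(I:C) 6 lay among the highest controls. The log2 difference was -0.06 (95% interval -0.13 to 0.02, limma adjusted p = 0.473, exact permutation p = 0.0671). A single summary value per array does not separate the isoforms, so a shift from one to another would not be seen in it.

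Nrg2, a close relative of Nrg1, ran from 5.91 to 6.16 (median 5.96) in controls and from 5.98 to 6.14 (median 6.01) in exposed mice. Control 4 was the highest of the 12 arrays, and 4 of the other controls lay below every poly(I:C) array. The log2 difference was 0.05 (95% interval -0.05 to 0.15, limma adjusted p = 0.635), and without control 4 it was 0.09. Nrg4, a neuregulin best known as a factor secreted by fat, had group means of 3.83 ± 0.06 in controls and 3.83 ± 0.07 in exposed mice (SD, n = 6 arrays per group), under the median level of all probe sets. Its log2 difference was 0.0004, with a 95% interval of -0.09 to 0.09.

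Among the receptors, Erbb3 had the largest difference of all 8 genes. Erbb3 is expressed in the oligodendrocyte lineage and in Schwann cells and is a receptor for Nrg1 and Nrg2. Its lowest, median and highest log2 values were 5.81, 6.14 and 6.42 in controls and 5.76, 5.89 and 5.93 in exposed mice. Controls 2, 3, 5 and 6 lay above every poly(I:C) array, whereas controls 1 and 4, at 5.81 and 5.91, lay within the poly(I:C) range. The means were 6.14 ± 0.24 and 5.87 ± 0.06 (SD, n = 6 arrays per group), which is a log2 difference of -0.26 (95% interval -0.45 to -0.07, limma unadjusted p = 0.0123, adjusted p = 0.224) and a ratio of 0.835. The exact permutation test gave p = 0.0368, and 6 of 6 poly(I:C) arrays were below the control mean. In a bulk sample, fewer cells of a type and less RNA per cell cannot be told apart.

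Erbb4 is the neuregulin receptor of many GABAergic interneurons and can bind all 4 neuregulins. Its lowest, median and highest log2 values were 8.16, 8.39 and 8.47 in controls and 8.34, 8.49 and 8.61 in exposed mice. In exposed mice 4 of 6 arrays lay above every control, number 3 lay among the higher controls and number 6 was below the control mean. The means were 8.36 ± 0.12 and 8.48 ± 0.09 (SD, n = 6 arrays per group), which is a log2 difference of 0.13 (95% interval 0.002 to 0.25, limma unadjusted p = 0.0462, adjusted p = 0.338). The exact permutation test gave p = 0.0671. This difference was the smallest of the 3 that reached the unadjusted level, and it lost that level without control 1, 2 or 4 or without poly(I:C) 1, 2, 4 or 5. It was also lost among probe sets above the median level (unadjusted p = 0.0534), over all rows of the table (0.0514), with trend and robust settings (0.0521) and with a replicate block (0.0692), and it held in 9 of 23 alternatives in all.

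Erbb2, the shared partner receptor, lay under the median level of all probe sets, with values from 4.34 to 4.53 (median 4.38) in controls and from 4.37 to 4.63 (median 4.46) in exposed mice. Its log2 difference was 0.07 (95% interval -0.03 to 0.17, limma adjusted p = 0.513). Egfr, the receptor for EGF and its relatives, is expressed in glia and in neural progenitors. Its values ran from 6.00 to 6.44 (median 6.31) in controls and from 6.23 to 6.35 (median 6.27) in exposed mice, and control 1 was the lowest of the 12 arrays. The group means were equal to 2 decimals at 6.28, with a 95% interval of the log2 difference from -0.13 to 0.13.

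Marker genes of several lists also differed in value between the groups. Their part in the differences of the 8 genes was not tested beyond the fits given here. Of 14 measured markers of mature oligodendrocytes, the myelinating cells, 14 were lower in value in exposed mice, 12 at an unadjusted p under 0.05 and 1 past the adjusted threshold (Mobp, log2 difference -0.51, limma adjusted p = 0.0411). The mean of that list ran from 7.65 to 8.22 in controls and from 7.53 to 7.69 in exposed mice, so that only control 1 lay within the poly(I:C) range. Of 10 measured genes listed as markers of oligodendrocyte precursors 6 were lower in value, 5 of them at an unadjusted p under 0.05. Bcas1 (-0.32), Sox10 (-0.20) and Olig2 (-0.17) had the smallest p. Not all of the list is confined to precursors, since the whole lineage expresses Sox10, Olig2 and Olig1, so it does not measure precursors alone. Cspg4 (-0.12) and Olig1 (-0.22) also reached that level, and Gpr17 (-0.09) was lower without reaching it. The other 4 were higher in value and did not reach that level: Pdgfra (0.07), the receptor that defines precursors, Lhfpl3 (0.04), Neu4 (0.04) and Vcan (0.01). With the mature oligodendrocyte mean as a covariate the log2 difference of Erbb3 was 0.02 ± 0.09 (standard error of the fit, limma unadjusted p = 0.864), in place of -0.26 ± 0.09. Other marker means also took Erbb3 out of the unadjusted level: the difference was -0.15 ± 0.10 with the mean of cortical neuron markers (unadjusted p = 0.146), and -0.19 ± 0.10 with the cortical, septal and pallidal, and choroid plexus means together (0.0769). Because exposure and the oligodendrocyte mean largely coincide, the fit with it cannot assign the Erbb3 difference to either.

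Markers of cortical glutamatergic neurons, which do not belong to the accumbens, were set beside Nrg3. Of 9 measured genes 8 were higher in value in exposed mice, 5 of them at an unadjusted p under 0.05, and 0 passed the adjusted threshold. The list mean ran from 5.54 to 6.69 in controls and from 5.94 to 6.80 in exposed mice. For example Slc17a7, a vesicular glutamate transporter gene, had means of 7.32 ± 1.49 and 8.82 ± 0.70 (SD, n = 6 arrays per group). Control 1 had the highest cortical mean among controls, 6.69, and also the highest Nrg3, and poly(I:C) 4 had the highest of both over the 12 arrays. With the cortical mean as a covariate, a setting chosen after the data were seen, the log2 difference of Nrg3 was 0.04 ± 0.07 (limma unadjusted p = 0.596). The loss was not particular to that list, since with the oligodendrocyte mean the difference of Nrg3 was 0.05 ± 0.13 (unadjusted p = 0.685). The 10 measured choroid plexus and ependymal markers were all lower in value, 4 of them at an unadjusted p under 0.05, with a list mean from 4.94 to 6.91 in controls and from 4.80 to 5.02 in exposed mice. Of 10 septal and pallidal markers 6 were lower in value. With the cortical, septal and pallidal, and choroid plexus means together as covariates the Nrg3 difference was 0.01 ± 0.07, and without controls 4 and 6, which had the highest choroid plexus means, it was 0.16 (limma unadjusted p = 0.154).

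Erbb4 was run through the same fits. Its log2 difference was 0.13 ± 0.07 with the cortical mean as a covariate (limma unadjusted p = 0.0938), 0.21 ± 0.08 with the oligodendrocyte mean (unadjusted p = 0.0244), 0.08 ± 0.06 with the cortical, septal and pallidal, and choroid plexus means together (unadjusted p = 0.227) and 0.11 without controls 4 and 6 (unadjusted p = 0.0797). The 10 interneuron markers, GABAergic ones with Chat and Slc5a7 of cholinergic interneurons, gave 7 genes higher and 3 lower in value. Of these Nos1 (0.14) reached an unadjusted p under 0.05, while Kit stood at 0.10 and Calb2 at -0.65, and the list mean ran from 6.69 to 6.97 in controls and from 6.61 to 6.90 in exposed mice. Egfr, with equal group means, had a log2 difference of 0.17 ± 0.06 once the oligodendrocyte mean was a covariate (limma unadjusted p = 0.0177, adjusted p = 0.268). Among other glial and vascular markers, 0 of 10 astrocyte and 0 of 8 endothelial markers reached an unadjusted p under 0.05, beside 14.4% of all probe sets. Of 9 microglial markers 7 were lower in value, and 2 of them reached that level, Tyrobp (-0.19) and C1qa (-0.16). These 2 were 22.2% of the list, beside 6.57% of all probe sets on the lower side. Under the oligodendrocyte fit, as in every other fit run, 0 of the 8 genes passed the adjusted threshold.

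**Figure D2:**
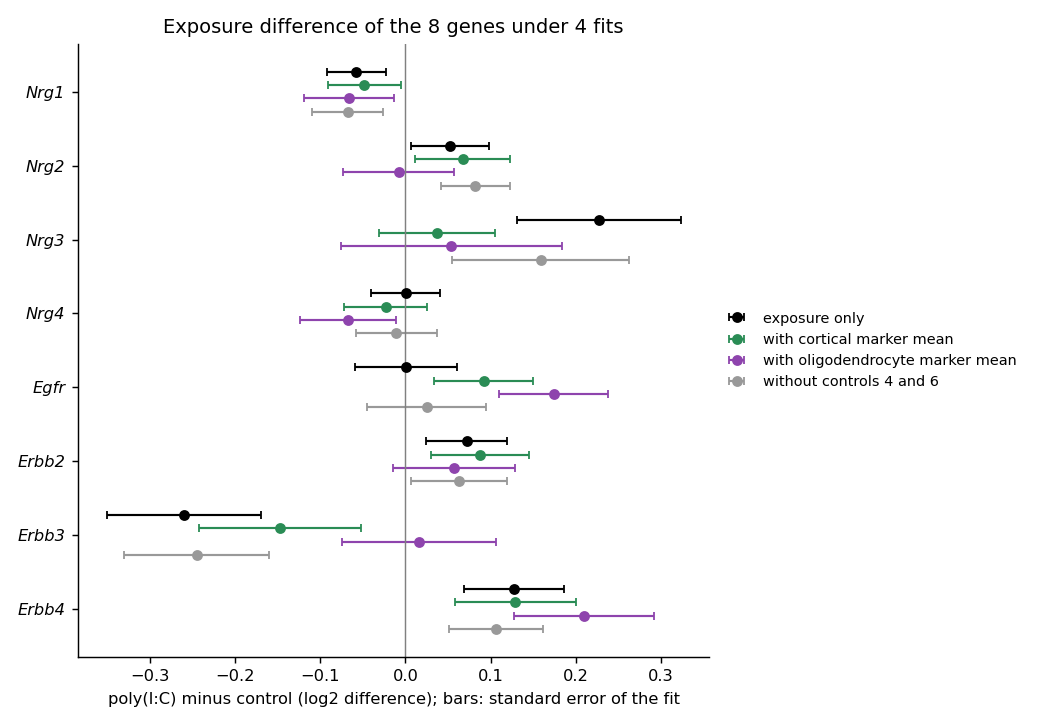
The log2 difference, poly(I:C) minus control, of each gene under 4 fits, with bars for the standard error of the fit. The black points use exposure alone; the Erbb3 point moves from -0.26 to 0.02 with the oligodendrocyte marker mean as a covariate and to -0.15 with the cortical marker mean, and the Nrg3 point from 0.23 to 0.05 and 0.04 with the same means, while the Erbb4 point stays above 0 in all 4.

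Variation among arrays of the same group was also measured, as deviations from the group means over the 12 arrays. Each of the 8 genes was set against 5 marker list means, which made 40 relations, and 0 had an adjusted p under 0.05 in a permutation test within groups. The closest was Nrg3 with the cortical mean (Pearson r = 0.85, permutation p = 0.00133, adjusted p = 0.0532; Spearman rho = 0.80, permutation p = 0.0032, adjusted p = 0.125). Without control 1 and poly(I:C) 4, the 2 arrays farthest from the median of the cortical mean, r was 0.62, and within the groups it was 0.91 in controls and 0.78 in exposed mice. Erbb3 had r = 0.78 with the mature oligodendrocyte mean (permutation p = 0.0478, adjusted p = 0.191; rho = 0.83, permutation p = 0.0181, adjusted p = 0.137), and r fell to 0.49 without controls 1 and 6, so the relation rests largely on those arrays. Egfr had the same r of 0.78 with that list (permutation p = 0.00703, adjusted p = 0.0937; rho = 0.64, permutation p = 0.0284, adjusted p = 0.137) and 0.69 without the same 2 arrays.

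Erbb4 had r = 0.74 with the mean of the GABAergic and cholinergic interneuron markers (permutation p = 0.0122, adjusted p = 0.0980; rho = 0.66, permutation p = 0.0376, adjusted p = 0.137), and 0.60 without control 1 and poly(I:C) 6. Its r with the cortical mean was -0.01 (permutation p = 0.971, adjusted p = 0.973; rho = -0.04, permutation p = 0.923, adjusted p = 0.947), and without control 1 and poly(I:C) 4 it was 0.30. Nrg1 had r = 0.74 with the medium spiny neuron mean (permutation p = 0.00484, adjusted p = 0.0937; rho = 0.69, permutation p = 0.0176, adjusted p = 0.137), and 0.77 without controls 3 and 6. Erbb2, which lay under the median level, had r = 0.69 with the medium spiny neuron mean (permutation p = 0.0112, adjusted p = 0.098), and 0.72 without the same controls. For Erbb2 rho was 0.61 (permutation p = 0.0395, adjusted p = 0.137), so that relation was not particular to Nrg1. The relation with the interneuron mean was likewise not particular to Erbb4. Erbb3 had r = 0.70 with it (permutation p = 0.0159, adjusted p = 0.105), and 0.75 without control 1 and poly(I:C) 6. For Erbb3 rho was 0.84 (permutation p = 0.00626, adjusted p = 0.125), and Egfr had r = 0.63 (permutation p = 0.0183, adjusted p = 0.105). In the interneuron list Calb2 varied most, with an SD of 0.85 in controls and 0.67 in exposed mice, so it weighs heavily in that mean. Whether the relations hold without Calb2 was not tested. Each relation sets transcripts of the same dissected piece against each other, so a piece with more of a neighbouring tissue enters both axes.

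**Figure D3:**
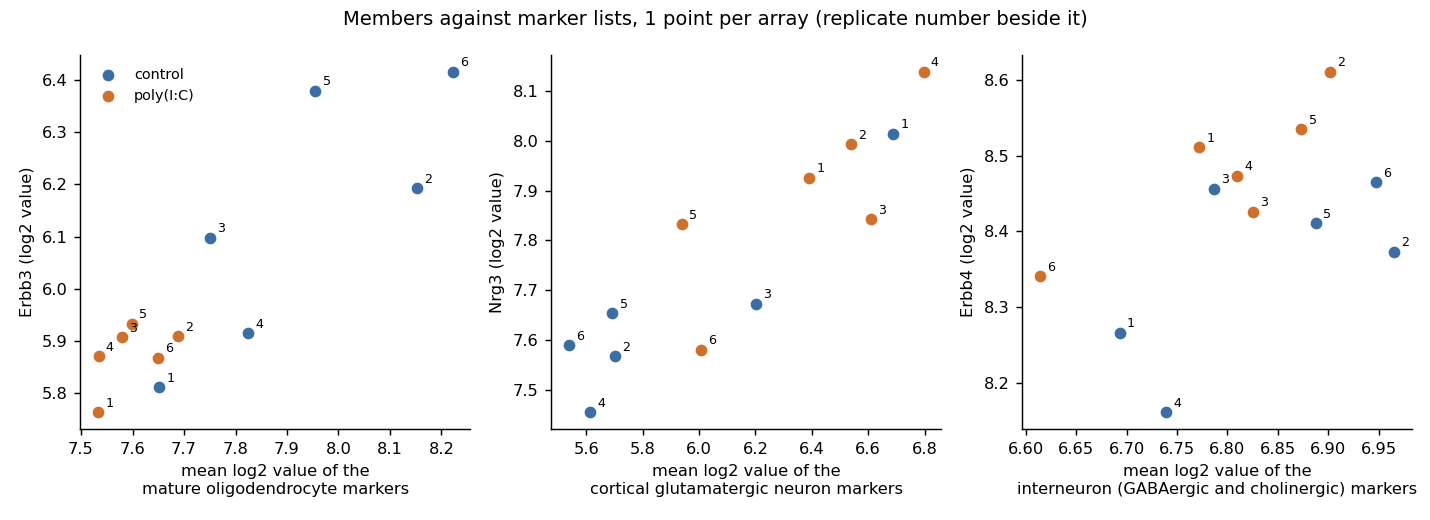
Log2 values of Erbb3, Nrg3 and Erbb4 against the mean log2 value of the mature oligodendrocyte, cortical glutamatergic neuron and interneuron (GABAergic and cholinergic) markers, with 1 point per array, blue for control and orange for poly(I:C), and the replicate number beside each point. The poly(I:C) points sit in the lower left corner of the Erbb3 panel, between 5.76 and 5.93, and the Nrg3 points of both groups run along the same rising band.

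The transcripts whose deviations ran most closely with those of each gene are given as a description. For Nrg3 they were Syt17, Bend5 and Ptpru, with Pearson r of 0.98, 0.98 and 0.96 over the 12 arrays, and Syt17 had a log2 difference of 0.45 (limma adjusted p = 0.475). For Erbb3 they were Adi1, Kif5b and Eef1akmt2 (r of 0.97, 0.96 and 0.95), none of which is in the oligodendrocyte lists. For Erbb4 they were Pcnx4, Ddah1 and Nipsnap3b (r of 0.95 each), for Egfr Scfd1, Cryzl2 and Kif26b (0.93 to 0.96), for Nrg1 Sv2c, a synaptic vesicle gene, with Oosp2 and Aebp2 (0.91 to 0.92), and for Nrg2 Kcna5, Ephb1 and Hmcn1 (0.90 to 0.94). These are the top values among all named genes over 12 arrays, so high correlations are built into the choice. Erbb2 and Nrg4 lay under the median level and were not ranked.

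Other genes of the pathway were examined in 7 lists with 72 measured genes. Of these, 0 passed the adjusted threshold, and 11 (15.3%) reached an unadjusted p under 0.05, 5 higher and 6 lower in exposed mice, beside the 14.4% of all probe sets. The other EGF family ligands showed the smallest differences: none of 6 measured genes reached an unadjusted p under 0.05, and the log2 differences at the smallest p were 0.03 for Ereg, 0.04 for Hbegf and 0.03 for Epgn. Only 2 of the 6 lay above the median level of all probe sets, and Ereg and Epgn lay under it. Among 7 measured genes that cut or process neuregulins, Adam17, a sheddase that frees EGF family ligands from the membrane, was lower in value (6.12 ± 0.07 against 6.00 ± 0.04, log2 difference -0.12, limma adjusted p = 0.209). Bace1, the protease that cleaves the axonal form of Nrg1, was higher in value (8.07 ± 0.06 against 8.16 ± 0.03, log2 difference 0.08, limma adjusted p = 0.310), and Adam10 stood at -0.08.

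Genes that restrain ErbB receptors pointed both ways, with 8 of 12 higher in value. Cblb, a ubiquitin ligase that marks receptors for breakdown, ran from 6.38 to 6.57 (median 6.50) in controls and from 6.52 to 6.75 (median 6.67) in exposed mice, a log2 difference of 0.17 (limma unadjusted p = 0.00164, adjusted p = 0.134). It passed with array weights (adjusted p = 0.0457) and in 0 of the other 22 alternatives. Lrig3, from a family of transmembrane proteins that act on receptor tyrosine kinases, had a log2 difference of -0.22 (adjusted p = 0.192). It lay under the median level of all probe sets. The suppressor of cytokine signalling gene Socs5 stood at 0.10.

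Adaptors and scaffolds, the largest list with 18 measured genes, held 4 of the 6 pathway genes that were lower at the unadjusted level. These were 22.2% of the list, beside 14.4% of all probe sets in either direction and 6.57% on the lower side. In the list as a whole 9 genes were higher and 9 lower in value. Gab1, a docking protein that links activated receptors to phosphoinositide 3-kinase, ran from 7.64 to 8.02 (median 7.77) in controls and from 7.49 to 7.58 (median 7.54) in exposed mice. Every poly(I:C) array lay below every control array, a log2 difference of -0.27 (95% interval -0.41 to -0.14, limma unadjusted p = 0.000575, adjusted p = 0.0926). It was past the threshold with array weights (adjusted p = 0.0356) and in 0 of the other 22 alternatives. Erbin, a PDZ protein that binds Erbb2, had a log2 difference of -0.19 (adjusted p = 0.158). Shc3, an adaptor of neurons, ran from 9.160 to 9.27 in controls and from 8.96 to 9.156 in exposed mice, with groups that narrowly did not overlap (log2 difference -0.13, limma adjusted p = 0.193). Shc4, of the same adaptor family, lay at -0.09 (adjusted p = 0.345) and under the median level of all probe sets.

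With the mature oligodendrocyte mean as a covariate the number of lower pathway genes at the unadjusted level went from 6 to 0, though not all 6 shrank. Gab1 then stood at -0.06 (unadjusted p = 0.248), Erbin at -0.03 (0.629), Adam17 at -0.02 (0.697) and Lrig3 at -0.04 (0.607), whereas Shc3 at -0.14 (0.0551) and Shc4 at -0.13 (0.0614) missed that level with differences no smaller than before. The cortical mean left Gab1 at -0.20 (limma unadjusted p = 0.00972), Shc3 at -0.15 (0.0129) and Shc4 at -0.11 (0.0473). Erbin at -0.10 (0.0666), Adam17 at -0.08 (0.104) and Lrig3 at -0.17 (0.0621) missed the level with it. Their loss was therefore not particular to the oligodendrocyte mean. The number of lower pathway genes was 6 with the cortical mean too, though not the same genes.

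Most genes of the Ras-MAPK and PI3K-Akt branches were higher in value by small amounts, and 10 of 11 and 14 of 15 lay above the median level, where 59.5% of probe sets were higher with a median difference of 0.022. In the Ras-MAPK branch 10 of 11 measured genes were higher in value, with Nras at 0.15 (limma adjusted p = 0.255) and the transcription factor gene Elk1 at 0.11 (adjusted p = 0.297) at the unadjusted level and Map2k1 at 0.10. The list median was 0.05, and 0.012 with the cortical, septal and pallidal, and choroid plexus means as covariates. In the PI3K-Akt branch 14 of 15 were higher in value with a median of 0.07, and the count was 10 after quantile normalization was applied again, 9 when control 1 was left out and 9 with the cortical, septal and pallidal, and choroid plexus means as covariates. Its member Tsc2, which holds mTOR in check, ran from 7.82 to 7.99 in controls and from 7.98 to 8.08 in exposed mice, a log2 difference of 0.14 (limma unadjusted p = 0.00187, adjusted p = 0.141). Mtor itself stood at 0.07, Gsk3b at 0.10 and Akt1 at 0.07. Of 3 measured STAT genes 0 reached the unadjusted level, with Stat3 at 0.02, Stat5a at 0.04 and Stat5b at -0.07.

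**Figure D4:**
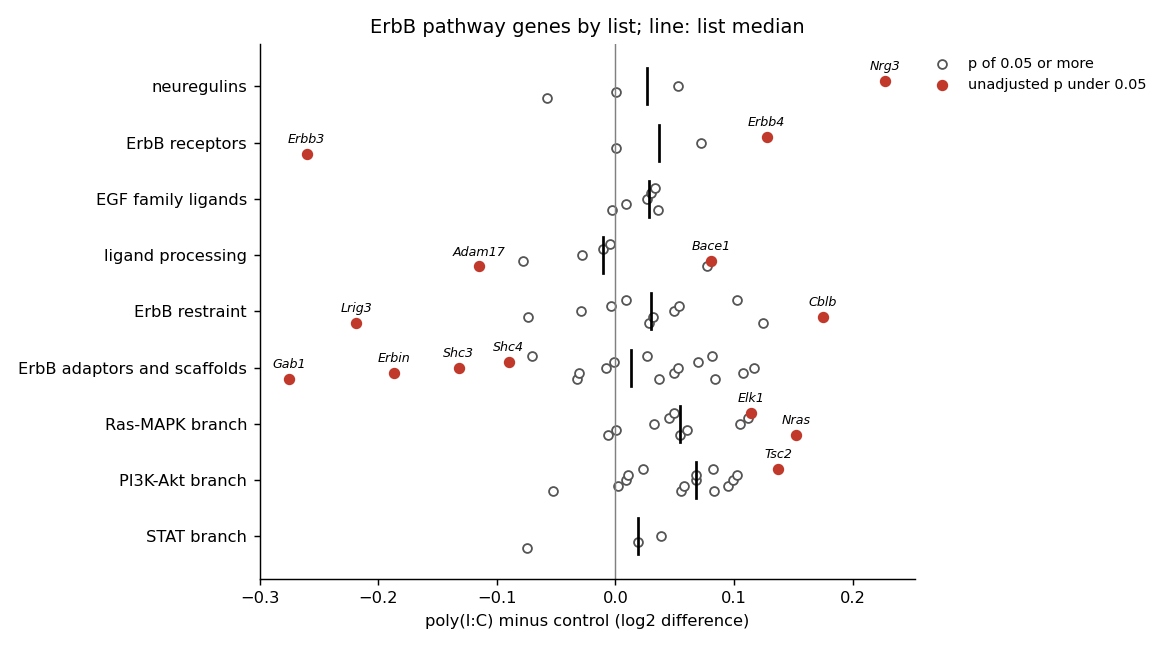
Log2 differences, poly(I:C) minus control, of the 8 genes and the 72 measured pathway genes by list, with a black line at each list median and filled red points for an unadjusted p under 0.05. Gab1 at -0.27 and Erbb3 at -0.26 are the lowest points, Nrg3 at 0.23 is the highest, and 14 of the 15 points of the PI3K-Akt branch lie between 0 and 0.14.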

How the data were processed

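The authors deposited 1 table of 35556 probe sets with a log2 value on each of 12 Affymetrix Mouse Gene 1.1 ST arrays. Per the submitters' processing notes the values came from RMA and Partek 6.6; neither the RMA settings nor a genome build is stated in the sources used, and coordinates are left out. RMA draws arrays to a common distribution, so a shift shared by most transcripts would not show, and low values are compressed. The number of arrays limits the precision.

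The 21218 probe sets with 1 symbol in the platform annotation were fitted in limma 3.58.1 (R 4.3.3), lmFit and eBayes at default settings with exposure as the only term and Benjamini-Hochberg adjustment over all of them. Differences are poly(I:C) minus control, tests are two-sided and no intensity filter was used. The fit was also run on simulated data with independent rows and the same spread in both groups. Those data do not cover correlated rows or unequal spreads. Where several probe sets named a listed gene, the one with the highest mean was taken. List members named are the 3 with the smallest unadjusted p in a list. Exceptions, picked with their values in view, were Cspg4, Olig1, Gpr17, Pdgfra, Lhfpl3, Neu4, Vcan, Chat, Slc5a7, Ppp1r1b, Drd2, Penk, Shc4 and Akt1. The most similar transcripts of a gene were ranked by Pearson correlation of deviations from group means, and correlations with marker lists were tested with 100000 permutations within groups. Members and lists were chosen with earlier results of these data known. Alternatives covered normalization, filters, weights, variance model, replicate block, covariates and arrays left out.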

Additional observations from a re-analysis of the deposited data

Results flagged for a closer look

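In 58 groups of 6 arrays (the 8 genes and the named pathway genes) 5 held an array that stood apart, by a gap to its nearest neighbour that exceeded Dixon's critical share of the whole range; chance gives about 1 in 20. Among the 8 genes, control 4 lay above the other controls for Nrg2 (6.16 against 5.99, a gap of 0.707 of the range). Control 1 lay above the other controls for Nrg4 (3.94 against 3.83, 0.667). Among pathway genes, control 6 was high for Lrig3 (4.56 against 4.29, 0.626), poly(I:C) 2 was high for Map2k1 (9.05 against 8.85, 0.650) and poly(I:C) 6 was low for Stat3 (7.01 against 7.20, 0.654).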

How the results depend on the processing

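None of the 8 genes passed the adjusted threshold in any of the alternatives, where the lowest adjusted p was 0.0731 for Erbb3 and 0.0956 for Nrg3, both with array weights, and 0.214 for Erbb4, without poly(I:C) 6. Nrg1, Nrg3, Erbb2 and Erbb4 kept their sign in every alternative. With 1 array left out the log2 difference ran from -0.33 to -0.20 for Erbb3, from 0.18 to 0.30 for Nrg3, from 0.09 to 0.16 for Erbb4, from -0.056 to 0.032 for Egfr and from -0.018 to 0.022 for Nrg4. The sign turned for Erbb3 (0.016), Nrg2 (-0.0080) and Nrg4 (-0.067) with the oligodendrocyte mean as a covariate, for Egfr after a further quantile normalization (-0.012) and with array weights (-0.037), and for Nrg4 without controls 4 and 6 (-0.011), with the 3 tissue means (cortical, septal and pallidal, and choroid plexus; -0.011) and with the cortical mean alone (-0.023); the cause was not tested.

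Of all probe sets, 13 passed in the main analysis, 38 after quantile normalization, 20 among those above the median level, 140 with array weights, 1 with trend and robust settings, and 0 in limma over all 35556 rows (4658 at an unadjusted p under 0.05), without controls 4 and 6 (1768), with the 3 tissue means (1916), the oligodendrocyte mean (2985) or the cortical mean (2294). With 1 array left out the number ran from 0 to 84: 54 without control 1, 6 without control 2, 84 without control 3, 28 without poly(I:C) 1, 39 without poly(I:C) 6 and 0 without any other array (2344 to 3125 at an unadjusted p under 0.05). Pathway genes higher at the unadjusted level numbered 5, but 3 after quantile normalization, 8 with array weights, 1 with the 3 tissue means, 9 with the oligodendrocyte mean and 3 to 9 with 1 array left out; lower genes numbered 6, but 0 with the oligodendrocyte mean. The median difference of the adaptors (0.01) was 0.037 among probe sets above the median level, 0.028 with the 3 tissue means, -0.015 with the oligodendrocyte mean and 0.0022 to 0.029 with 1 array left out, that of the restraint genes (0.03) was 0.10 with the oligodendrocyte mean, and that of ligand processing (-0.01) was -0.041 with the 3 tissue means. No member had several probe sets, so averaging them was not run.

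With a replicate block on the shared numbers, 0 probe sets passed (2801 at an unadjusted p under 0.05), and the log2 differences were unchanged, with limma adjusted p-values of 0.211 for Erbb3, 0.349 for Nrg3 and 0.418 for Erbb4. Same-numbered arrays did not all deviate together (correlations of deviations from -0.20 to 0.27, and 1 of 6 controls closest to its own number), so the numbers were not taken to pair the animals.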

Other observations

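Control arrays were more widely spread than poly(I:C) arrays for Erbb3 and Egfr. The SD of Erbb3 was 0.24 in controls and 0.06 in exposed mice, a ratio of 4.05, and 2% of all probe sets with 1 symbol had a larger ratio; the median ratio was 1.14. For Egfr the SD was 0.15 in controls and 0.05 in exposed mice, a ratio of 3.05. Control 1, at 6.00, lay below the other controls, which ran from 6.27 to 6.44, so the Egfr spread rests largely on that array. The mature oligodendrocyte mean had an SD of 0.23 in controls and 0.06 in exposed mice. The difference in spread was not tested.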
